A study of Mus musculus with 28 samples.

Results

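Potassium channel genes were followed here across cells that express the leptin receptor and the rest of the mouse hypothalamus. The members were the genes of the counts table whose symbol is Kcn followed by letters and a number, together with Abcc8, the sulfonylurea receptor of the ATP-sensitive channel. The long non-coding RNA Kcnq1ot1 was left out. The rule took 93 of the 55487 genes of the table and used no measured value. It covers pore subunits and auxiliary subunits alike, and some symbols, such as Kcnip3, belong to proteins with other known roles as well.

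Potassium channels let potassium leave a cell and so set its resting potential, the shape of its action potentials and its firing rate. Voltage-gated (Kv) channels repolarise the membrane after a spike, inward rectifiers (Kir) and two-pore-domain (K2P) channels hold it near rest, and calcium-activated channels follow intracellular calcium. In hypothalamic neurons that sense leptin, the ATP-sensitive channel (K-ATP, built of Kir6.2 and the sulfonylurea receptor), G protein-gated GIRK channels and Kv channels are known targets of metabolic and hormonal signals.

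The mice carried a reporter, LepRb-eGFP-L10a, in which a ribosomal protein tagged with eGFP is made in cells that express LepRb, the long form of the leptin receptor. Controls and treated mice all carried this reporter; the sources used here do not say what drives its expression. Mice of both sexes, aged 10 to 13 weeks, lost access to food when the lights came on and were injected intraperitoneally with metreleptin, a leptin analogue, at 5 mg per kg or with vehicle. Hypothalami were collected 3 or 10 h later, tagged ribosomes were captured with antibodies to eGFP, and RNA was sequenced both from them (beads) and from the lysate left after capture (depleted fraction). Each of 14 lysates gave 1 library of either fraction, 28 in all. Wild-type reporter mice gave 4 vehicle and 3 leptin lysates at 3 h, and 1 vehicle and 3 leptin lysates at 10 h. Reporter mice homozygous for the ob mutation (ob/ob), which make no functional leptin, gave 2 vehicle and 1 leptin lysate at 10 h. The labels do not say how many mice went into a lysate or whether lysates were prepared separately, so p-values measure the spread between these lysates.

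Libraries held 19649105 to 42267040 counts. All 10 markers of LepRb neurons on the list used here (Lepr and Agrp among them) were higher in beads, and all 12 astrocyte, 12 oligodendrocyte and 12 microglia markers were lower. The mean log2 level of those 36 glial markers nevertheless ranged from 3.51 to 5.26 between bead libraries. General neuron markers went both ways: of 8, 4 were higher in beads and 3 lower, with a median log2 difference of 0.09. Of 6 endothelial markers, 3 were higher in beads and 0 were lower, with a median log2 difference of 0.52. Pituitary hormone genes summed to 287 and 3040 CPM (counts scaled to library size by TMM) in the depleted libraries of a wild-type vehicle lysate (m3) and a wild-type leptin lysate (f2) of 3 h, to 146 CPM in that of the ob/ob leptin lysate, and to 2.85 to 7.19 CPM in the other depleted libraries. The wild-type lysates of 3 h, those of 10 h and the ob/ob lysates were each sequenced in a run of their own, so time, genotype and run cannot be told apart.

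Of the 93 members, 73 averaged at least 1 CPM in at least 1 fraction. For bead against depleted, 81 passed the filter of 10 counts in 3 libraries. The other 12 (Kcna7, Kcne1, Kcne3, Kcnj1, Kcnj13, Kcnj15, Kcnk7, Kcnk15, Kcnk16, Kcnk18, Kcnmb3 and Kcnv2) never exceeded 14 counts in a library and were not tested. Within either fraction alone, 79 (beads) and 80 (depleted) members were tested. Levels of different genes are compared here only per kilobase of exon (RPKM). On that scale the most abundant member was Kcnab2, a cytoplasmic beta subunit of Kv1 channels, at 61.6 RPKM in beads and 74.5 in the depleted fraction. It was followed in both by Kcnip4, a calcium-binding partner of Kv4 channels, at 48.3 and 48.1 RPKM. The most abundant pore subunit in beads was Kcnc4 (Kv3.4) at 28.9 RPKM, ahead of the GIRK subunit Kcnj9 at 24.9 RPKM. In the depleted fraction this order was turned, with 28.2 RPKM for Kcnj9 and 23.7 for Kcnc4.

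The promoters of 4 members that lay at the ends of the bead-to-depleted range are shown because their genes moved in opposite directions. Each run holds 250 bases before and 50 after the annotated start, from RefSeq on GRCm38.p6, on the strand of the gene; capitals mark CG dinucleotides. Kcna5 (chr6:126535506-126535805, minus strand) and Kcnj5 (chr9:32344295-32344594, minus strand) were higher in beads. Kcnj10 (chr1:172340960-172341259, plus strand) and Kcng4 (chr8:119635631-119635930, minus strand) were lower.
Kcna5: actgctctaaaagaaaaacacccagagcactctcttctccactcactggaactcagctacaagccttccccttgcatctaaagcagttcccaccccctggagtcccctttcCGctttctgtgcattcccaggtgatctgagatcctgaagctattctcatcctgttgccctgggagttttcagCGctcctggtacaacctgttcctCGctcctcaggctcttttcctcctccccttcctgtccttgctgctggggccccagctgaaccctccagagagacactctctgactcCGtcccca
Kcnj5: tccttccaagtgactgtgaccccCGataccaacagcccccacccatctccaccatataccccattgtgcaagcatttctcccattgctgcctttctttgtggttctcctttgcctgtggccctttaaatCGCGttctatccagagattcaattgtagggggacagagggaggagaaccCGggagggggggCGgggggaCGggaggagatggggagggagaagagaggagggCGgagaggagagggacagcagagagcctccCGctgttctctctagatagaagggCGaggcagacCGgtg
Kcnj10: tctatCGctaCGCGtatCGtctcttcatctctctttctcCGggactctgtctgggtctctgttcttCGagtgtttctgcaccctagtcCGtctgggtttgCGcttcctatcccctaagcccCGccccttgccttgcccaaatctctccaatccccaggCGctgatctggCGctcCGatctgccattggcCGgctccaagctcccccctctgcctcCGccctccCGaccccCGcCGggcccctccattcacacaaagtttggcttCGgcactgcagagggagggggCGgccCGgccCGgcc
Kcng4: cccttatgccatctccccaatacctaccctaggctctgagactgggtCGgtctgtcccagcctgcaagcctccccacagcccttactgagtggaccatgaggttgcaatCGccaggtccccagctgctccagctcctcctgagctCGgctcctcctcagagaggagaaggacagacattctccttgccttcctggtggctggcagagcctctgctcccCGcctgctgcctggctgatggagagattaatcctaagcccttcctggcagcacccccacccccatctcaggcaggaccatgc
Kcna5 and Kcng4 each hold 4 CG dinucleotides, Kcnj5 holds 10 and Kcnj10 holds 21, against a median of 7 over the 32851 promoters of the table. CG content thus did not sort the pair that was higher from the pair that was lower. The motif TTCNNNGAA, the letters that STAT factors are known to bind, was searched on both strands and is in none of these 4 windows. It occurs in 8.3% of all promoters and in 8.7% of the 92 promoters found for 67 members. TATAAA, also searched on both strands, is in none of the 4, in 13.6% of all promoters and in 5.43% of those of members. These matches are descriptions of letters only.

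The first question was which channel genes are enriched or depleted in RNA on the ribosomes of LepRb cells. Of 81 tested members, 61 differed between fractions (75.3%; edgeR quasi-likelihood test with lysate as a block, Benjamini-Hochberg adjusted p under 0.05), against 77.9% of all 19682 genes tested. Of these, 22 were higher in beads (27.2%, against 38.6% of all genes) and 39 lower (48.1%, against 39.3%). The median log2 difference of members was -0.17, beside -0.01 for all genes. In bulk RNA, fewer cells of a type and less RNA per cell cannot be told apart. Beads also hold RNA on captured ribosomes, whereas the depleted fraction is the lysate left after capture. A ratio of the fractions therefore cannot tell apart cell type, RNA level and the share of RNA on ribosomes. Differences were mostly small: 1 called member was at least 2-fold higher and 9 at least 2-fold lower. The lower ones include genes that averaged under 1 CPM in both fractions, such as Kcnn4. The share of all genes past 2-fold was not computed, so these counts do not set the members apart. Scaling by library totals instead of TMM moved the median of all genes to -0.19 and gave 12 members higher and 51 lower, with 27.4% of all genes higher and 50.4% lower.

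**Figure D1:**
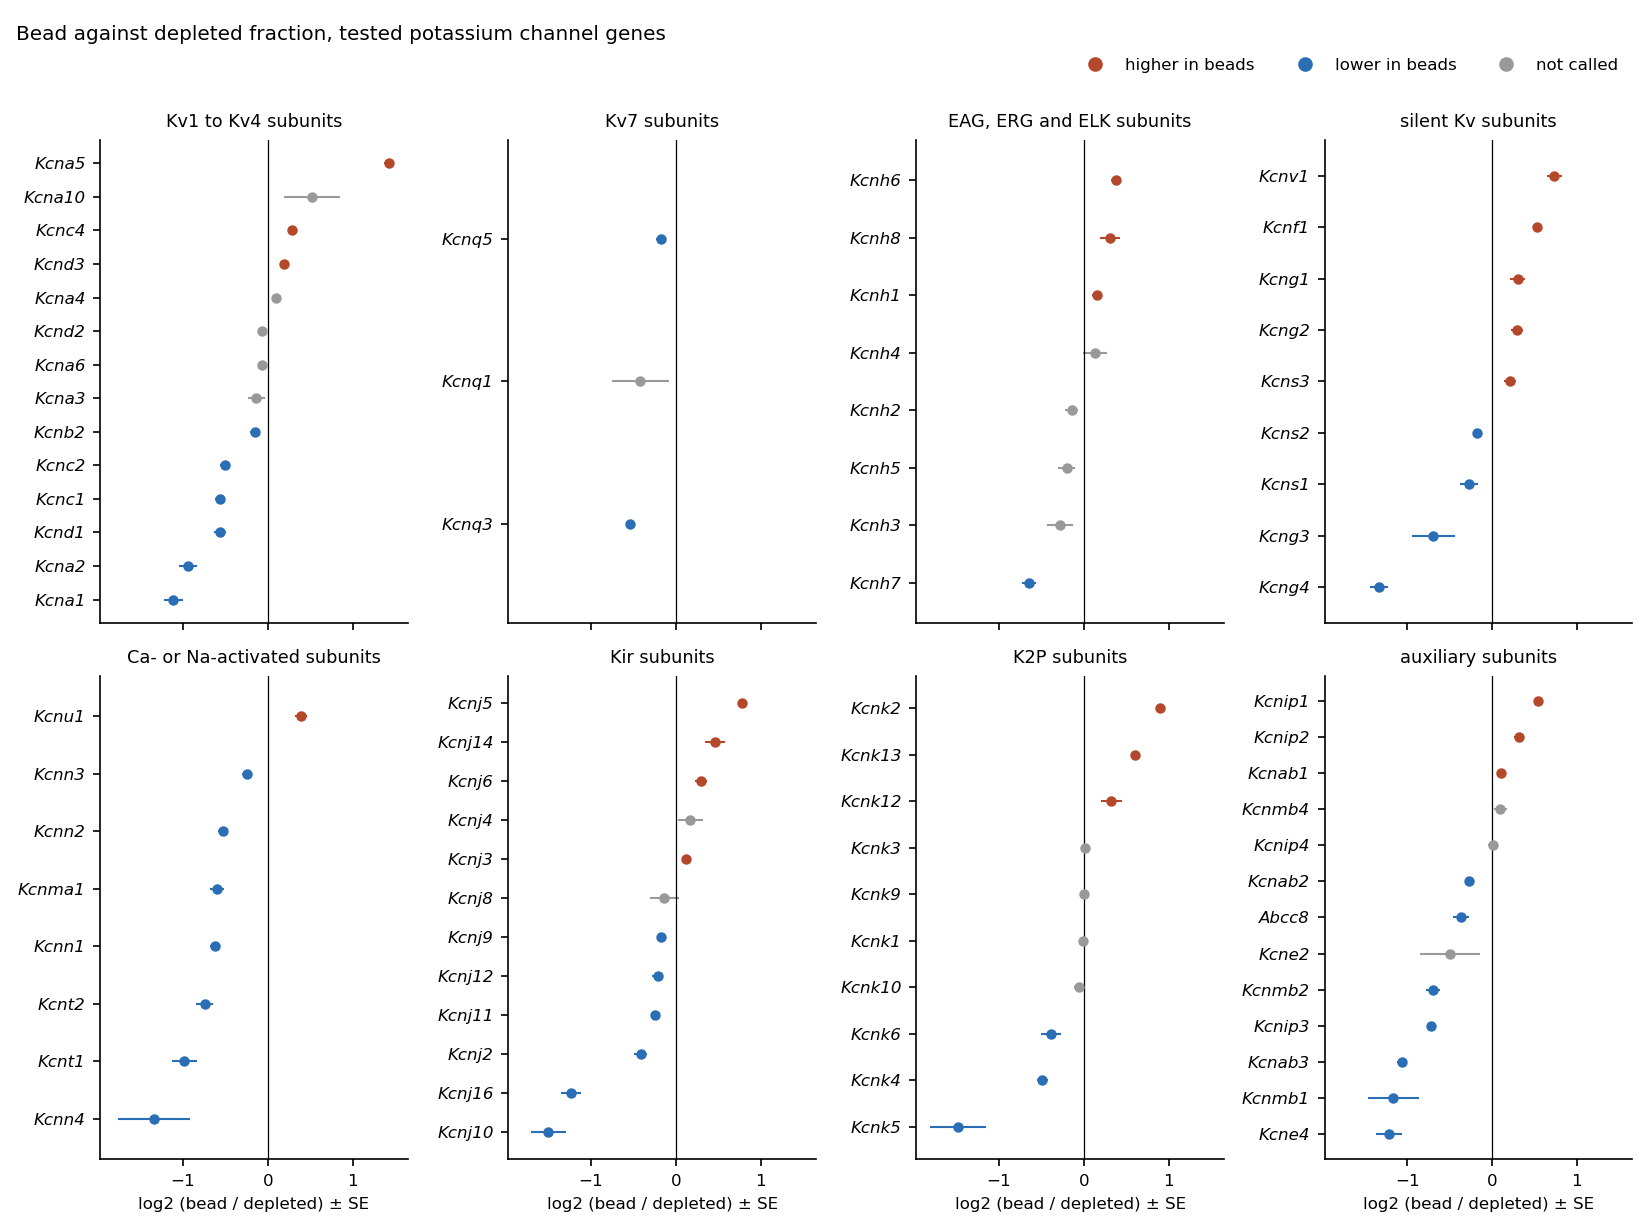
Log2 ratio of bead to depleted fraction (x axis, with its standard error) for tested members, apart from those not reported here, 1 panel per channel family; colours give the direction of genes past the adjusted threshold. Silent Kv subunits lie on both sides of 0, while 7 of the 8 calcium- or sodium-activated pore subunits lie left of 0.

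Among the pore subunits Kv1 to Kv4, which open on depolarisation, 3 of 16 tested were higher in beads and 8 lower. Kcna5 (ENSMUSG00000045534, Kv1.5), a delayed rectifier, had the largest rise of all members. It was at 24.4 to 46.5 CPM in the 14 bead libraries (median 36.2) and at 10.5 to 19.4 CPM in the 14 depleted libraries (median 12.8). Every bead library lay above every depleted one, and the log2 difference was 1.43 (SE 0.0571, adjusted p = 5.09e-14 by edgeR). The difference was 1.35 within the wild-type lysates of 3 h, 1.52 within those of 10 h and 1.33 within the ob/ob lysates. Its neighbour Kcna1 (Kv1.1), which dampens excitability at axons, went the other way. Kcna1 was at 6.82 to 28.7 CPM in beads (median 17.4) and at 29.5 to 42.7 CPM in the depleted fraction (median 35.6), again without overlap, a log2 difference of -1.11 (SE 0.112, adjusted p = 9.66e-08). A further gene of this cluster, Kcna6, differed by -0.07 (adjusted p = 0.162), though 39.6% of its exon bases are shared with a gene on the opposite strand, whose reads cannot be told apart with a kit that does not mark strand. The 3 genes stand side by side on chromosome 6 of GRCm38 and on the same strand, Kcna5 at 126532551 to 126535412, Kcna1 at 126640397 to 126646384 and Kcna6 at 126708329 to 126740674. Kcna2 (Kv1.2), which assembles with Kv1.1 along axons, was lower in all 14 lysates, with a log2 difference of -0.94 and medians of 117 CPM (beads) and 235 CPM (depleted).

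The Kv3 genes, whose channels allow fast spiking, were divided. Kcnc1 and Kcnc2 were lower in beads in all 14 lysates, with log2 differences of -0.56 and -0.51. Kcnc4 was higher in 13 of 14 lysates, at medians of 108 CPM (beads) and 86.6 CPM (depleted), a log2 difference of 0.29 (SE 0.0471, adjusted p = 1.15e-05). For Kv4, the A-type channels that delay firing, Kcnd3 was higher by 0.19 (adjusted p = 0.000285), Kcnd1 was lower by -0.57 and Kcnd2 differed by -0.07 (adjusted p = 0.156). With library totals in place of TMM the value for Kcnd3 was 0.015 (adjusted p = 0.785). Kcnb2, a Kv2 gene of the delayed rectifier current, was lower by -0.15.

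Kv channel-interacting proteins, the calcium-binding subunits of Kv4, also split. Kcnip1 was at 101 to 155 CPM in beads and from 85.0 to 98.3 CPM in the depleted fraction, with no overlap, a log2 difference of 0.54 (SE 0.0447, adjusted p = 9.44e-10). Kcnip2 was higher by 0.31 and Kcnip4 differed by 0.01 (adjusted p = 0.9), or by -0.17 with library totals (adjusted p = 0.00358). Kcnip3, which is also known as the transcriptional repressor DREAM, was lower in 14 of 14 lysates by -0.72 (SE 0.0441, adjusted p = 1.31e-11). Of the partner genes outside the rule that were tested here, 7 of 17 were higher and 5 lower. The Kv4 partners Dpp6 and Dpp10, dipeptidyl peptidase-like proteins that speed the A-type current, were both higher, by 0.41 and 0.32. Among the Kv1 beta subunits, Kcnab1 was higher by 0.11, Kcnab2 lower by -0.27 and Kcnab3 lower by -1.06 (adjusted p = 4.5e-12). Of the other auxiliary subunits, Kcne4, a single-span partner of Kv channels, was lower by -1.21 and Kcnmb2, a beta subunit of the large-conductance calcium-activated channel, by -0.70.

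Silent Kv subunits form no channel alone and alter Kv2 channels when they assemble with them. Of 9 tested, 5 were higher in beads and 4 lower. Kcnv1 was at 6.21 to 12.4 CPM in beads (median 8.32) and 3.49 to 10.3 CPM in the depleted fraction (median 4.81). It was higher in the beads of all 14 lysates although the ranges overlap, with a log2 difference of 0.74 (SE 0.0866, adjusted p = 1.56e-07). Kcnf1 was higher in all 14 as well, by 0.53, at medians of 74.9 and 49.6 CPM. Kcng4 was lower in all 14 by -1.33 (SE 0.11, adjusted p = 2.32e-09), at medians of 5.3 and 15.0 CPM.

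**Figure D2:**
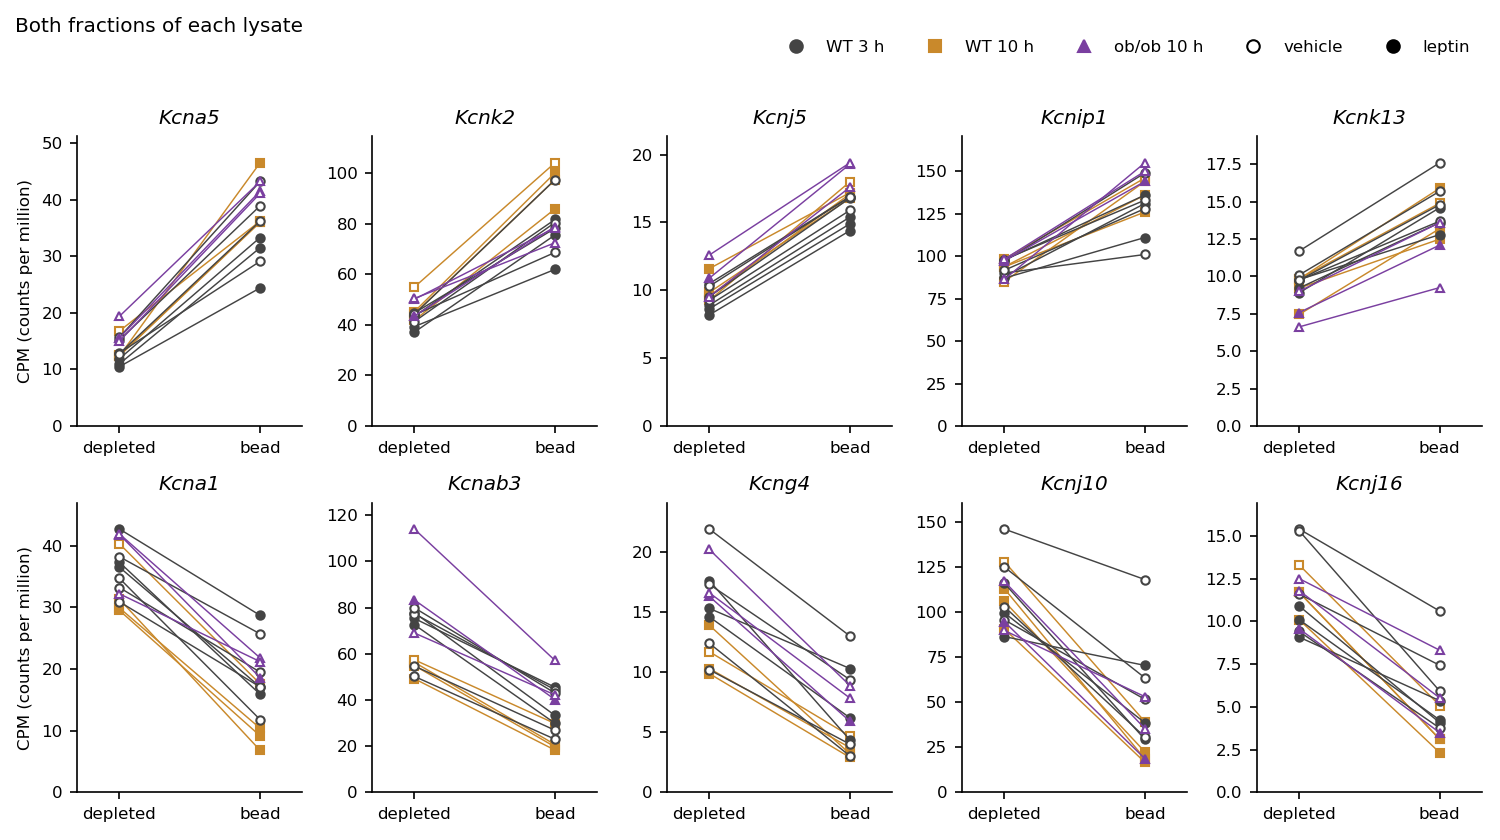
CPM (y axis, from 0) of 10 members in the depleted and bead library of each lysate, joined by a line; colour and marker shape give time and genotype, open symbols vehicle and filled symbols leptin. All lines rise for the 5 genes of the upper row and all fall for the 5 of the lower row.

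The Kv7 genes encode the M-current, which restrains repetitive firing, and none was higher in beads. Kcnq3 was lower in 14 of 14 lysates by -0.54 (SE 0.0492, adjusted p = 3.89e-09) and Kcnq5 by -0.17. Among EAG, ERG and ELK channels, Kcnh6 (0.38, in all 14 lysates), Kcnh8 (0.31) and Kcnh1 (0.15) were higher, while Kcnh7 was lower by -0.65. All 7 tested calcium- or sodium-activated genes other than Kcnu1 were lower: the large-conductance channel Kcnma1 (-0.60), the small-conductance channels Kcnn1, Kcnn2 and Kcnn3 (-0.62, -0.53 and -0.24), Kcnn4 at under 1 CPM (-1.34), and the sodium-activated Kcnt1 (-0.98) and Kcnt2 (-0.74). Kcnu1, known as the sperm channel Slo3, was higher in all 14 lysates by 0.40, at 4.29 to 6.97 CPM in beads and from 3.06 to 5.4 CPM in the depleted fraction. Within the wild-type lysates of 3 h alone, Kcnu1 differed by 0.18 (adjusted p = 0.0922).

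Kir and K2P channels set the resting potential. Of 12 tested Kir genes, 4 were higher and 6 lower. The steepest fall of all members was that of Kcnj10 (ENSMUSG00000044708, Kir4.1), the main potassium channel of astrocytes and oligodendrocytes. It was at 16.7 to 118 CPM in beads (median 37.0) and at 86.4 to 146 CPM in the depleted fraction (median 105), lower in beads in 14 of 14 lysates, a log2 difference of -1.50 (SE 0.203, adjusted p = 8.61e-06). Kcnj16 (Kir5.1), its partner subunit, was lower in all 14 by -1.23. Beside these, the 12 astrocyte markers were all lower with a median of -1.14; their part in the result was not tested. Kcnj9 lies 11.9 kb from Kcnj10 on the opposite strand and differed by -0.18.

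Of the K2P leak channels, 3 of 10 tested were higher and 3 lower. Kcnk2 (TREK-1), a channel opened by stretch and warmth, was at 61.9 to 104 CPM in beads (median 79.6) and at 37.1 to 54.9 CPM in the depleted fraction (median 44.1). The fractions did not overlap, and the log2 difference was 0.90 (SE 0.0543, adjusted p = 1.11e-11); 12.2% of its exon bases lie under a gene on the opposite strand. Kcnk13 (THIK-1), best known as the leak channel of microglia, was higher in beads in 14 of 14 lysates by 0.60 (SE 0.044, adjusted p = 1.55e-10), at medians of 13.6 and 9.49 CPM. The 12 microglia markers were all lower in beads, with a median of -1.68, and summed to 26.6 to 93.8 CPM there and 78.3 to 162 CPM in the depleted fraction. The TASK channels Kcnk3 and Kcnk9, which acid closes, had nearly equal averages in both fractions and differed by 0.02 (SE 0.0559, adjusted p = 0.79) and -0.0023 (SE 0.0368, adjusted p = 0.957).

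The 4 GIRK genes, whose channels open when Gi-coupled receptors are active, did not move as a unit. Kcnj5 (ENSMUSG00000032034, GIRK4) was at 14.4 to 19.4 CPM in beads (median 16.9) and 8.19 to 12.6 CPM in the depleted fraction (median 9.56). Every bead library exceeded every depleted one, with a log2 difference of 0.79 (SE 0.0416, adjusted p = 1.85e-12), and the value was 0.73, 0.78 and 0.77 within the 3 h wild-type lysates, those of 10 h and those of ob/ob mice. Kcnj6 (GIRK2) was higher in 11 of 14 lysates by 0.30 (adjusted p = 0.000491) and Kcnj9 (GIRK3) was lower in 12 of 14 by -0.18 (adjusted p = 0.000915). Kcnj3 (GIRK1), the obligate partner in most GIRK channels, was higher by 0.12 (adjusted p = 0.0112), but its sign turned to -0.06 both with library totals and in the ob/ob lysates alone. Per kilobase, Kcnj9 and Kcnj3 stood at 24.9 and 15.4 RPKM in beads, Kcnj5 at 3.61 and Kcnj6 at 0.94. Of 25 receptor and RGS genes known to open or to time GIRK channels, 12 were higher in beads and 7 lower, with a median of 0.08. The neuropeptide Y receptors Npy2r (1.94), Npy5r (1.099) and Npy1r (1.07) rose most, and the adenosine receptor Adora1 (-0.94) and the mu opioid receptor Oprm1 (-0.80) were lowest.

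The K-ATP channel pairs Kcnj11 (Kir6.2) with Abcc8 (SUR1), and the genes lie 3.8 kb apart on chromosome 7. Kcnj11 was at 22.1 to 41.3 CPM in beads (median 28.6) and 29.6 to 40.7 CPM in the depleted fraction (median 34.3). The ranges overlap, and beads were lower in 13 of 14 lysates by -0.25 (SE 0.0489, adjusted p = 0.000124). Abcc8 was at 4.26 to 16.9 CPM in beads (median 9.35) and 7.76 to 16.4 CPM in the depleted fraction (median 11.7), lower in 10 of 14 lysates by -0.36 (SE 0.0909, adjusted p = 0.00119). Within the wild-type lysates of 3 h the value for Abcc8 was -0.18 (adjusted p = 0.197). Kcnj8 (Kir6.1), the form of vascular muscle and pericytes, was near 1 CPM in both fractions and differed by -0.13 (SE 0.167, adjusted p = 0.47).

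**Figure D3:**
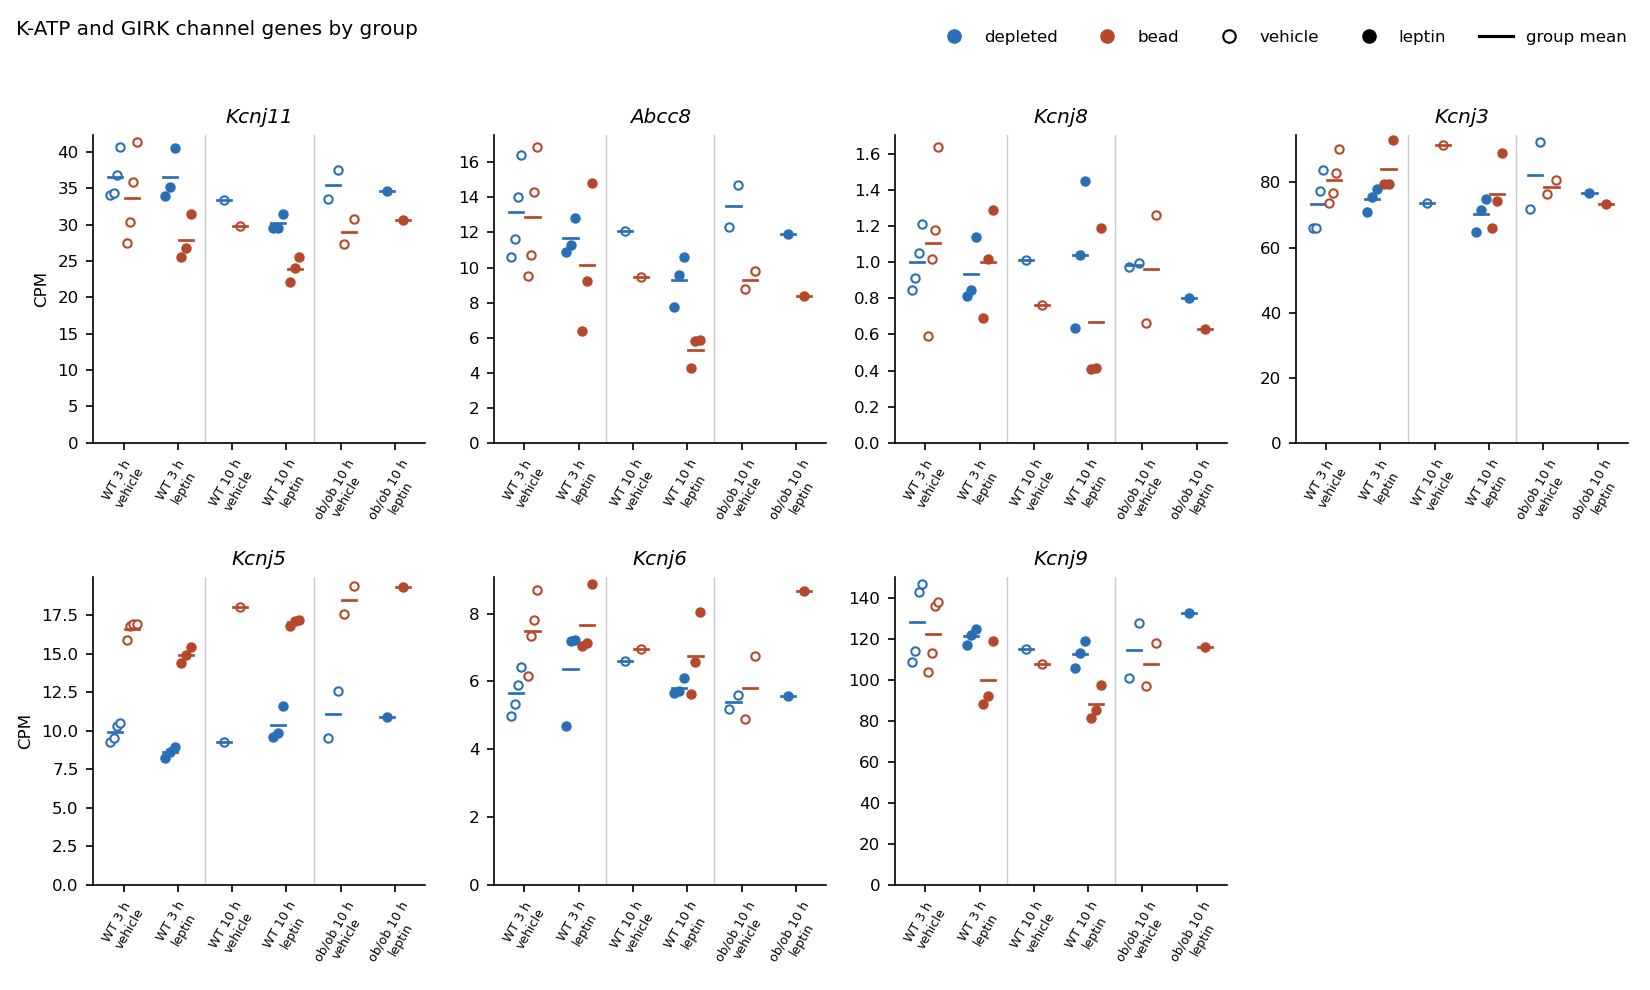
CPM (y axis, from 0) of the K-ATP genes Kcnj11, Abcc8 and Kcnj8 and the GIRK genes Kcnj3, Kcnj5, Kcnj6 and Kcnj9 by group in both fractions; points are libraries and bars group means. Kcnj5 is the only panel in which all bead points lie above all depleted points.

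The next question was whether leptin changes these transcripts. For 10 h, in either fraction, leptin changes were estimated separately in each genotype and then averaged with equal weight. Fold changes and tests named for 10 h therefore cover wild-type and ob/ob mice together, whereas those for 3 h are of wild type only. Each genotype has a group of 1 lysate at 10 h, vehicle in wild type and leptin in ob/ob. In beads no member passed the threshold at 3 h, at 10 h or in the effect shared by the 3 strata (wild-type mice at 3 h and at 10 h, and ob/ob mice); in each of these comparisons 0.022% of 18212 genes did. At an unadjusted p under 0.05 there were 6, 7 and 13 of 79 members (7.59%, 8.86% and 16.5%, against 7.48%, 9.09% and 11% of all genes). DESeq2 called 1 of 74 members (1.35%), Kcnj16, in the shared comparison, against 0.87% of all genes. The shared leptin effects in beads and in the depleted fraction were also compared. Their difference was called for 0 of 81 members by edgeR, against 0.0305% of all genes (0 by DESeq2, against 0.158%). At an unadjusted p under 0.05 there were 7 members (8.64%, against 5.34% of all genes). The K-ATP genes had 9.52 to 16.9 CPM of Abcc8 in beads with vehicle at 3 h and 6.38 to 14.8 CPM with leptin. At 10 h the values of Abcc8 were 9.44 CPM with vehicle and 4.26, 5.8 and 5.86 CPM with leptin in wild type, and 8.78 and 9.81 CPM against 8.38 CPM in ob/ob. Leptin libraries of Abcc8 thus lay below their vehicle libraries at 10 h and overlapped them at 3 h. The shared log2 change of Abcc8 was -0.42 (SE 0.182, adjusted p = 0.409) and that of Kcnj11 -0.20 (SE 0.101, adjusted p = 0.473). For the GIRK genes the shared changes were -0.05 (SE 0.0848) for Kcnj3, -0.09 (SE 0.0762) for Kcnj5, 0.13 (SE 0.136) for Kcnj6 and -0.20 (SE 0.1) for Kcnj9, with adjusted p between 0.47 and 0.843. Kcna5, the member highest in beads over the depleted fraction, changed by -0.14 (SE 0.12, adjusted p = 0.68).

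The members nearest the threshold in beads mostly had lower values with leptin. At 3 h these were Kcnf1 (-0.37), Kcnk6 (-0.80) and Kcnj4 (-0.68), each with an adjusted p of 0.656. At 10 h they were Kcnq5 (-0.46, adjusted p = 0.45), Kcnj16 (-0.91, adjusted p = 0.527) and Kcnd3 (-0.40, adjusted p = 0.529). In the shared comparison they were Kcnq5 (-0.35, adjusted p = 0.221), Kcnj16 (-0.73, adjusted p = 0.224) and Kcnh3 (-0.70, adjusted p = 0.234). The median of all 79 tested members was -0.15 at 3 h, -0.17 at 10 h and -0.17 in the shared comparison, beside -0.01, -0.01 and 0.01 for all genes. Of the M-current genes, Kcnq3 changed by -0.02 (SE 0.109) in the shared comparison. Kcnma1 and the small-conductance genes Kcnn1 to Kcnn3 lay between -0.23 and -0.09. Kcnd2, Kcnd3 and Kcnip1 to Kcnip4 lay between -0.21 and 0.0004, and none of these passed the threshold (adjusted p from 0.493 to 0.999). Between fractions, the leptin change was nearest the threshold for Kcnj9 (-0.21, adjusted p = 0.886), Kcnip2 (0.27, adjusted p = 0.886) and Kcnv1 (0.38, adjusted p = 0.928).

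Without the pituitary-rich wild-type lysates m3 and f2, 6 of 77 members were called lower with leptin in beads (7.79%, against 1.89% of all genes called lower), in the order Kcnj10 (-1.15, adjusted p = 0.00849), Kcnj16 (-0.92), Abcc8 (-0.66), Kcnt1 (-0.64), Kcnq5 (-0.44) and Kcnk1 (-0.35, adjusted p = 0.047). With all lysates the same genes gave -0.78, -0.73, -0.42, -0.47, -0.35 and -0.28, with adjusted p from 0.221 to 0.409. Glial marker levels moved the same way in those bead libraries. Their mean log2 CPM was 4.10 to 5.26 with vehicle and 3.94 to 4.67 with leptin at 3 h. Leaving out m3 and f2 removed the lowest of these vehicle values, 4.10, and the highest leptin value, 4.67, so that 4.50 to 5.26 stood against 3.94 to 4.15 without overlap. At 10 h it was 4.49 against 3.51 to 3.77 in wild type, and 4.25 and 4.80 against 3.79 in ob/ob. With this level as a covariate and all lysates kept, the values were 0.17 for Kcnj10, -0.13 for Kcnj16 and 0.04 for Abcc8. For Kcnt1, Kcnq5 and Kcnk1 they were 0.07, -0.17 and -0.11. None of the 6 was called by edgeR (adjusted p from 0.536 to 0.96), but with all lysates none was called without the covariate either. The covariate was not fitted without m3 and f2. At 10 h the glial level did not overlap between vehicle and leptin libraries of a genotype, so this fit cannot tell it from leptin. The part of glial RNA in the result was not tested.

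**Figure D4:**
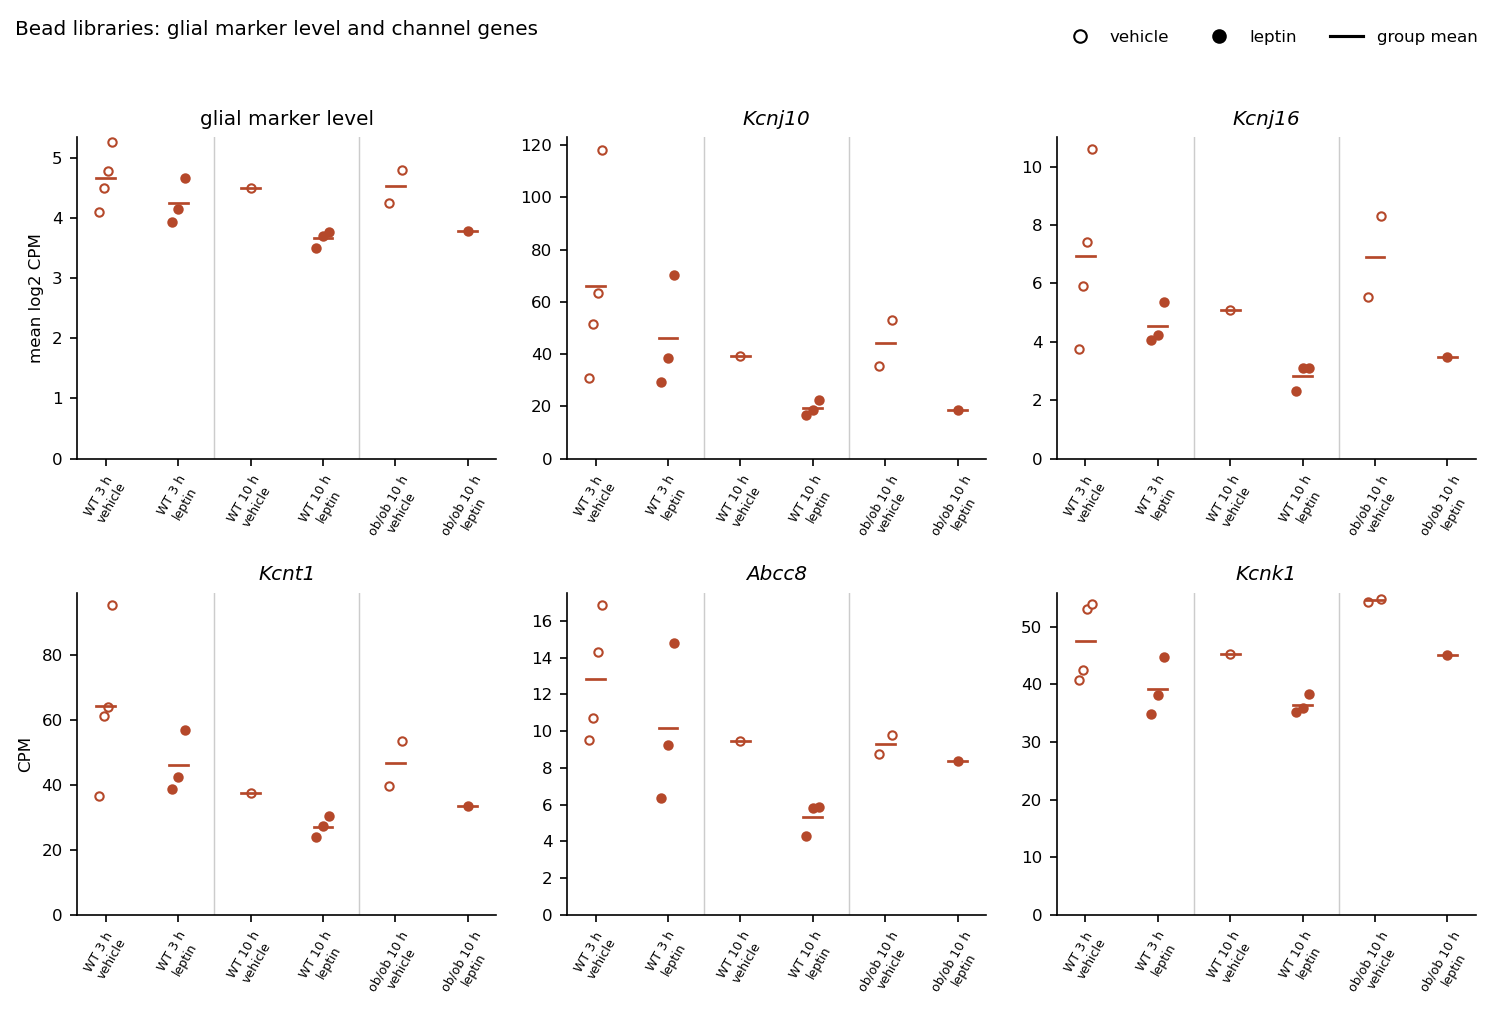
Mean log2 CPM of 36 glial markers (first panel) and CPM of 5 members (other panels, y axes from 0) in bead libraries by group; points are libraries and bars group means. The wild-type vehicle library with the highest glial marker level, 5.26, also has the highest Kcnj10, Kcnj16, Kcnt1 and Abcc8.

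In the depleted fraction, DESeq2 called 0 members for leptin at 3 h and 2 of 74 at 10 h (2.7%), against 0.47% and 0.718% of all genes. By edgeR 0 of 80 were called at 3 h and 0 at 10 h, against 0% and 0.00523% of 19115 genes. At an unadjusted p under 0.05 there were 8 members at 3 h (10.0%, against 9.48% of all genes) and 14 at 10 h (17.5%, against 8.98%). In the shared comparison 1 member was called, against 0.623% of all genes. It was lower, as were 0.534% of all genes. This was Kcnv1, the silent subunit described above. With vehicle at 3 h Kcnv1 was at 4.12, 5.05, 5.82 and 6.97 CPM, and with leptin at 3.49, 3.55 and 3.77 CPM. At 10 h it was at 10.3 CPM with vehicle and 3.86, 4.63 and 6.38 CPM with leptin in wild type, and at 4.98 and 6.5 CPM against 4.48 CPM in ob/ob. Leptin libraries lay below the vehicle libraries of their stratum in all 3 strata, by -0.68 on the log2 scale (SE 0.143, adjusted p = 0.0423). This call rested on a narrow margin. It was kept without lysate m1, m3 or m24, and lost without any other single lysate (adjusted p from 0.0508 to 0.258), with limma voom (adjusted p = 0.0561) and without m3 and f2 together (adjusted p = 0.107). Without the wild-type vehicle lysate of 10 h the change was -0.53, and with the glial marker level as a covariate it was -0.58 (adjusted p = 0.517). In beads Kcnv1 was at 8.3 to 9.19 CPM with vehicle and 6.21 to 7.73 CPM with leptin at 3 h, at 12.4 CPM against 9.12 to 10.9 CPM in wild type at 10 h, and at 7.11 and 8.07 CPM against 6.87 CPM in ob/ob. The order was the same in each stratum there, with a change of -0.28 (SE 0.0973, adjusted p = 0.32). Kcnq5 (-0.40, adjusted p = 0.0535), Kcna5 (-0.33, adjusted p = 0.0538) and Kcnk2 (-0.19, adjusted p = 0.0554) were next in the depleted fraction and missed the threshold; DESeq2 called these and Kcnv1 among 11 of the 72 members to which it gave an adjusted p (15.3%), all lower, and 3.94% of all genes were called lower by it. In the same comparison 5 of the 12 microglia markers and 2 of the 12 astrocyte markers were lower; their part in the result was not tested.

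**Figure D5:**
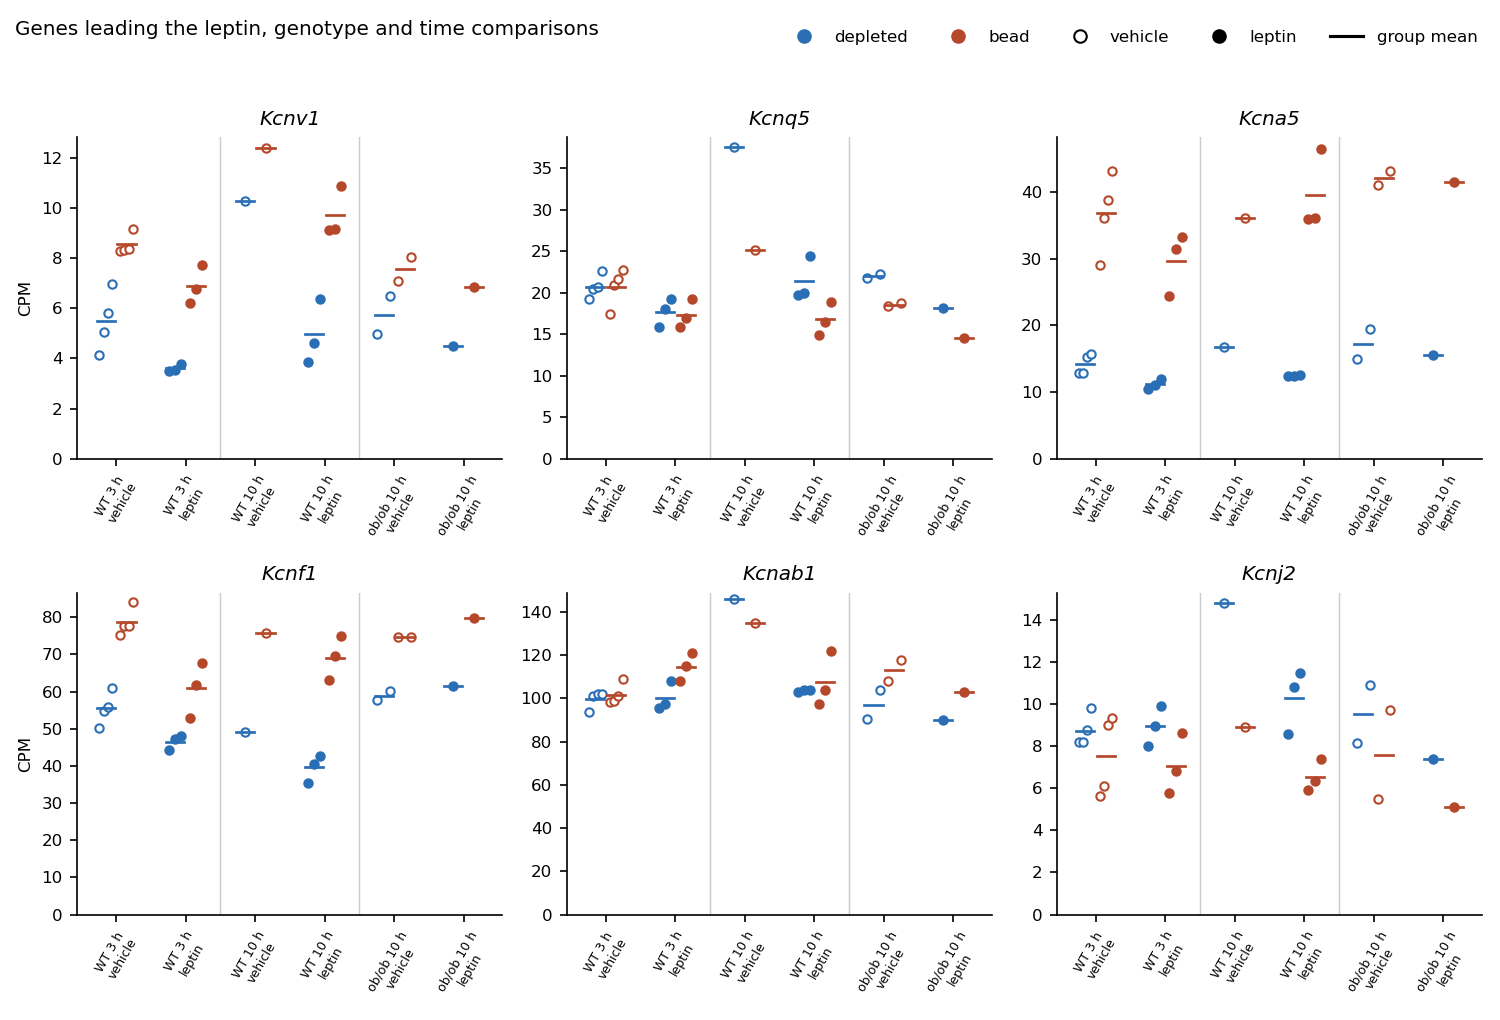
CPM (y axis, from 0) of 6 members by group in both fractions; points are libraries and bars group means. In the depleted fraction the lone wild-type vehicle library of 10 h is the highest of all for Kcnv1, Kcnq5, Kcnab1 and Kcnj2.

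The ob/ob lysates were compared with the wild-type lysates of 10 h, which differ from them in sequencing run too. In beads 0 of 79 members were called by edgeR, against 0.472% of all genes (2 by DESeq2, or 2.63%, against 1.28%). At an unadjusted p under 0.05 there were 11 (13.9%, against 9.78% of all genes). The smallest unadjusted p belonged to Kcnab3, with a change of 0.92 (SE 0.236, adjusted p = 0.147). The bead-to-depleted ratio itself differed between the genotypes for 0 of 81 members by edgeR, against 0.061% of all genes (0 by DESeq2, against 0.358%). At an unadjusted p under 0.05 there were 9 (11.1%, against 7.75% of all genes). Nearest to the threshold were Kcnf1 (-0.42, adjusted p = 0.309), Kcnip3 (0.29, adjusted p = 0.555) and Kcna1 (0.63, adjusted p = 0.579). In the depleted fraction 6 of 80 members were called (7.5%, against 5.57% of all genes), 2 higher in ob/ob (2.72% of all genes) and 4 lower (2.85%). Kcnf1 was at 57.7, 60.1 and 61.6 CPM in the depleted libraries of ob/ob mice and at 35.5, 40.6, 42.7 and 49.0 CPM in those of wild-type mice at 10 h. The groups did not overlap, and the change in Kcnf1 was 0.47 (SE 0.0742, adjusted p = 0.00443). The wild-type depleted libraries of 3 h held 44.2 to 61.0 CPM of Kcnf1, so the ob/ob values lay within or just above that range. In beads Kcnf1 was at 74.7, 74.8 and 79.9 CPM in ob/ob and at 63.0 to 75.9 CPM in wild type at 10 h, a change of 0.12 (SE 0.115, adjusted p = 0.812). Kcnc4 was also higher in ob/ob (0.27), and Kcnip3 (-0.34), Kcnab1 (-0.38), Kcnq5 (-0.48) and Kcnj2 (-0.53) were lower. All 5 erythrocyte markers were higher in the same comparison, with a median of 1.101; their part in the result was not tested.

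Wild-type lysates of 10 h were compared with those of 3 h, again across sequencing runs. In beads 0 of 79 members were called by edgeR, against 0% of all genes (2 by DESeq2, or 2.53%, against 2.54%). At an unadjusted p under 0.05 there were 19 (24.1%, against 17.7% of all genes). The smallest unadjusted p belonged to Kcnv1 (0.52, adjusted p = 0.15), Kcnt1 (-0.76, adjusted p = 0.187) and Kcnk2 (0.37, adjusted p = 0.187). In the depleted fraction 9 of 80 were called (11.2%, against 7.18% of all genes), 6 higher at 10 h (3.17% of all genes) and 3 lower (4.01%). The higher genes were Kcnv1 (0.69), Kcnq5 (0.56), Kcnj2 (0.48), Kcnab1 (0.30), Kcnk2 (0.23) and Kcnh7 (0.22), and the lower ones Kcnc4 (-0.21), Kcnk3 (-0.29) and Kcnj12 (-0.29). In the same comparison 3 of the 5 erythrocyte markers (median -0.55) and 2 of the 6 endothelial markers (median -0.38) were lower; their part in the result was not tested. The wild-type side of both comparisons holds a single vehicle lysate of 10 h. Its depleted library held 37.6 CPM of Kcnq5 against 15.8 to 24.4 CPM in the other 13, and 146 CPM of Kcnab1 against 89.9 to 108 CPM. That lysate was then left out and leptin lysates only were compared, a choice made after seeing these values. Between times 0 of the 9 calls remained, with 0.536% of all genes called. Between genotypes the ob/ob side then held a single depleted library, with pituitary genes at 146 CPM. It cannot show whether the 6 genotype calls hold, and only sizes are given. Kcnf1 differed by 0.66 there. These comparisons use fewer lysates, and several other called genes kept differences of like size. Between genotypes these were Kcnj2 (-0.46), Kcnip3 (-0.33) and Kcnc4 (0.24), and between times Kcnh7 (0.23), Kcnj12 (-0.34) and Kcnk3 (-0.26). The values of others were smaller: Kcnq5 then changed by -0.21 between genotypes and by 0.27 (adjusted p = 0.179 by edgeR) between times. Without a wild-type leptin lysate of 10 h (number 2) the time calls fell from 9 to 2. The genotype calls fell from 6 to 3 without another (number 3), and rose without an ob/ob vehicle lysate (number 2). The shares of all genes called in these fits are not given, so these counts do not set the members apart from the whole table.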

How the data were processed

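The deposited table holds raw read counts per gene for 28 libraries. Per the submitters' processing notes the authors used STAR 2.7.6a and GRCm38.p6; the sources used here do not name the counting program or its strand setting. Per the labels' protocols, polyA libraries were made with a kit that does not mark strand and read for 50 cycles. Gene positions and exon lengths came from GENCODE M21, and promoters from RefSeq.

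Each fit kept genes that reached 10 counts in 3 or more of its libraries and tested them in edgeR 4.0.16 (R 4.3.3) with TMM scaling, robust quasi-likelihood F tests and Benjamini-Hochberg adjustment over all genes at 0.05. Bead and depleted libraries were compared with lysate as a block. Lysate pairs come from the same tissue by their titles; in 10 of 10 lysates checked, a library's deviations correlated best with its own partner (r from 0.0814 to 0.3295). Leptin, genotype and time were tested within a fraction on 6 groups with 8 residual degrees of freedom, where groups of 1 lysate are assumed to vary like the others. Leptin at 10 h gave both genotypes equal weight, and the shared leptin effect was fitted over 3 strata. DESeq2 1.42.0 and limma 3.58.1 voom, other filters and scalings, left-out lysates and a glial covariate were alternatives. Only the tests of bead against depleted, of leptin at 3 h in beads and of the leptin difference between fractions were tried on simulated data. The simulated libraries had no lysate effects, and the outcome is not given here.

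Libraries of 19649105 to 42267040 counts limit mainly genes under 1 CPM. The members and lists were chosen with earlier results of these data known. Named by rule are members of at least 1 CPM. For bead against depleted these are up to 10 highest and 10 lowest called with 1 sign in all 14 lysates. Elsewhere they are every called member or the 3 with the smallest p. Preset K-ATP, GIRK, Kv7, calcium-activated and Kv4-related genes were named at any level. Other members were named as examples of their family, after their values were seen. Results of some members are not reported here, although counts over members include them.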

Additional observations from a re-analysis of the deposited data

Results flagged for a closer look

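In the wild-type vehicle group of 3 h, the one group with 4 lysates, 94 sets of 4 values from 47 named genes were searched for a library far from its fellows; 5 were found, and chance flags about 1 in 20 groups. Kcnab1 was at 93.7 CPM in the depleted library of lysate m3, against 101 to 102 CPM in the other 3. Kcnn3 was at 33.6 CPM in the depleted library of lysate f3, against 41.1 to 42 CPM. In beads, Kcnh6 was at 10.2 CPM in lysate f1 against 13 to 13.5 CPM, and Kcnj5 at 15.9 CPM in lysate f3 against 16.8 to 16.9 CPM. Kcnv1 was at 9.19 CPM in the beads of lysate m1 against 8.3 to 8.38 CPM.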

How the results depend on the processing

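No member was called in opposite directions between fractions under any setting, but the number higher in beads fell from 22 to 12 with library totals, 13 in leptin lysates alone, 12 in wild-type lysates of 10 h and 11 in ob/ob lysates. The share of all genes higher fell too, from 38.6% to 27.4%, 33.1%, 34.1% and 25.4%. Kcnj3 reversed to -0.0551 with library totals and -0.0595 in ob/ob lysates, and Kcnip4 to -0.1706 with library totals and -0.1495 in wild-type lysates of 3 h. With no replicate block, 59 of the 61 calls between fractions remained, 21 higher and 38 lower; the pairing changed no other count. With no low-count filter, members called numbered 1 for the genotype difference in bead-to-depleted ratio, 1 for the leptin difference between fractions, and 2, 3, 5, 4 and 13 in beads for leptin at 3 h, at 10 h and shared, genotype and time. In the depleted fraction these were 8, 12, 14, 21 and 22. Of all genes, these fits called 0.828% and 0.626% in the first pair, 0.545%, 1.33%, 1.75%, 1.12% and 3.86% in beads, and 1.71%, 1.58%, 3.79%, 5.07% and 5.85% in the depleted fraction. DESeq2 called 2 for genotype, 2 for time and 1 for shared leptin in beads, and 2 for leptin at 10 h, 10 for genotype, 17 for time and 11 for shared leptin in the depleted fraction (all genes 1.28%, 2.54%, 0.87%, 0.718%, 8.87%, 13.7% and 5.19%, in this order). The glial covariate gave 1 for genotype in beads, and 15 for genotype, 15 for time and 0 for shared leptin in the depleted fraction, where voom also gave 0 (all genes 1.14%, 8.35%, 11%, 0% and 0.513%). Without lysates m3 and f2 there was 1 call for the leptin difference between fractions, 1 for genotype, 1 for time and 6 for shared leptin in beads, and 5 for time and 0 for shared leptin in the depleted fraction (all genes 0.518%, 0.721%, 0.688%, 2.35%, 5.78% and 0.122%). Leptin lysates alone, an alternative chosen after seeing the data, as was leaving out m3 and f2 for genotype, gave 0 for time in the depleted fraction (0.536% of all genes). For genotype it leaves a single ob/ob library in a fraction, so no count is given. Leaving out each lysate in turn gave 0 to 1 for time and 0 to 1 for shared leptin in beads (1 without m3 in each case), and 0 to 1 for leptin at 10 h (1 without wild-type leptin lysate 2), 3 to 10 for genotype, 2 to 13 for time and 0 to 5 for shared leptin (5 without m24, 3 without ob/ob vehicle lysate 1, 2 without m3) in the depleted fraction. Leptin at 10 h and genotype gave no value without the only wild-type vehicle lysate of 10 h or the only ob/ob leptin lysate, nor did time without the first of these. The shares of all genes called with single lysates left out are not given here. The cause of these changes was not tested.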
